A study of Mus musculus with 3 samples.

Results

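The transcripts described here belong to 47 protein-coding genes of Wnt signalling, taken from the 48709 genes of the count table by name: all genes called Wnt, Fzd, Sfrp, Dkk or Rspo followed by a number, together with Lrp5, Lrp6, Wif1, Frzb, Axin2 and Ctnnb1. They comprise 19 ligands, 10 Frizzled receptors, 2 coreceptors, 6 ligand-binding antagonists, 4 Dickkopf genes, 4 R-spondins and 2 intracellular genes. RNA came from cells sorted from mouse lung and labelled as smooth muscle, in 3 libraries of 1 group, wild type (WT). CreERT2, a Cre recombinase that works only once tamoxifen is given, was driven in all animals by smooth muscle actin sequences, alongside tdTomato, a red fluorescent reporter. At 8 weeks of age the animals had 10 daily intraperitoneal tamoxifen doses of 75 mg/kg, and lungs were collected, digested and sorted after a further 2 months. With 1 group there is no contrast between conditions, so levels, their spread over libraries and ratios inside each library are given. Nothing in the labels says that the libraries came from separate animals, and the spread may be technical.

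Wnt proteins are secreted, lipid-modified ligands. They bind the cysteine-rich domain of Frizzled receptors, and with the coreceptors Lrp5 and Lrp6 they stop the destruction of beta-catenin, which then enters the nucleus and acts with TCF/LEF factors. Other Wnt proteins, Wnt5a and Wnt11 among them, are known mainly for signalling that does not use beta-catenin and that guides cell polarity and movement. In the adult lung, Wnt signals from fibroblasts and other stromal cells maintain alveolar type 2 cells, and Wnt5a is a known product of lung mesenchyme, smooth muscle included.

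Library totals were 16877297 to 18896263 counts, and levels are given in CPM, the count of a gene scaled to a library total of 1000000. A count of 0 allows a level of up to 0.159, 0.163 and 0.178 CPM in libraries 1, 2 and 3 (3 counts, counting error only). The labelled cell type was checked against 8 smooth muscle markers. Of these, 7 had a mean of at least 1 CPM and 4 a mean of at least 10 CPM. The summed level of all 8 was 65.7, 103 and 74.1 CPM, with the contractile gene Cnn1 at 0 counts in library 1. Markers of other cells were summed in the same way, as shown by the colour map of members and markers. The sums were 900.1 to 1922.8 CPM for 10 fibroblast markers, 482 to 836 CPM for 10 endothelial markers, 851 to 1146 CPM for 8 T cell markers and 487 to 2222 CPM for 7 alveolar type 2 markers. Airway markers, 7 in number, had the largest sum, at 2801 to 13769 CPM, of which Scgb1a1 alone gave 2632 to 13192 CPM. Single genes weighed heavily in other sums too. Gsn gave 471 to 943 CPM of the fibroblast sum and Sftpc 246 to 1352 CPM of the alveolar type 2 sum. Lyz2 gave 189 to 704 CPM of a myeloid sum of 240 to 856 CPM. A mean of at least 1 CPM was reached by every fibroblast, endothelial, pericyte, T cell, B cell, natural killer and alveolar marker. It was reached by 6 of 7 airway, 6 of 8 myeloid and 1 of 5 mesothelium markers. These are bulk libraries, in which fewer cells of a type and less RNA per cell cannot be told apart.

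Ctnnb1, Lrp6 and Axin2 had the highest mean levels of the members, and most ligands were rare. A mean of at least 1 CPM was reached by 20 of the 47 members (42.6%), against 59.4% of the 22005 nuclear protein-coding genes, and a mean of at least 10 CPM by 8 members (17.0%), against 35.8%. Only Ctnnb1 and Lrp6 exceeded 100 CPM, a level that 5.89% of nuclear protein-coding genes reached. The median over the 47 members was 0.720 CPM and that over nuclear protein-coding genes 3.08 CPM. The members at 1 CPM or more were 7 of 19 ligands, 6 of 10 receptors, both coreceptors, 2 of 6 ligand-binding antagonists, 1 of 4 Dickkopf genes, none of 4 R-spondins and both intracellular genes. Of these 20, 18 had at least 1 CPM in every library, the exceptions being Wnt16 and Wif1. No read was counted for Wnt9b or Dkk1 in any library, although 14 members in all had 0 counts in at least 1 library.

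**Figure D1:**
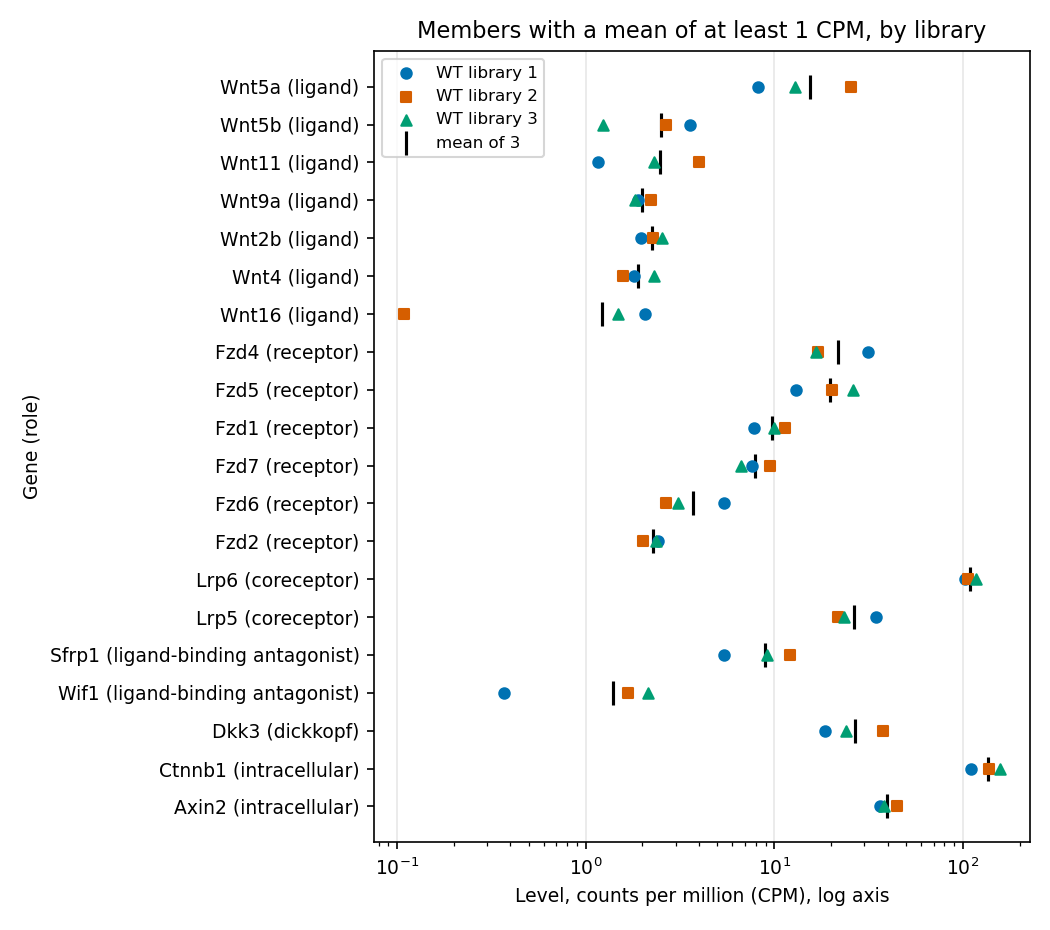
Level of each member with a mean of at least 1 CPM, in CPM on a log axis, with 1 symbol per WT library and a bar at the mean of 3. Ctnnb1 and Lrp6 lie above 100 CPM in every library, and Wnt16 in library 2 and Wif1 in library 1 lie far below their other libraries.

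Among the ligands, Wnt5a was the highest by mean level. Wnt5a (ENSMUSG00000021994, chromosome 14, 28504750 to 28527447) had 8.26, 25.5 and 12.9 CPM in libraries 1, 2 and 3. Library 2 was the highest and library 1 the lowest, a 2.99-fold range after scaling by the TMM method (trimmed mean of M-values), which corrects library sizes. Wnt5b, its close relative, had 3.60, 2.67 and 1.24 CPM, with library 1 highest. Wnt11 had 1.16, 3.98 and 2.31 CPM, so that its order over libraries was that of Wnt5a. Wnt2b, Wnt9a and Wnt4 lay between 1.58 and 2.55 CPM in all libraries, with means of 2.26 ± 0.296, 1.99 ± 0.212 and 1.90 ± 0.375 CPM (SD, n = 3). Wnt2b is related to Wnt2, Wnt9a to Wnt9b, and Wnt4 is known from kidney and reproductive tract development. Wnt16 had 2.06, 0.109 and 1.48 CPM, and its 39 counts in library 1 stood against 2 in library 2, a ratio of 19.6 with a 95% interval of 5.07 to 167 (exact binomial, counting error only). These libraries were picked as its highest and lowest, and the interval does not allow for that choice.

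The other 12 ligands had a mean below 1 CPM. Wnt10b, a ligand that promotes bone and restrains fat formation, was steady at 14, 13 and 12 counts. Wnt2, a ligand of embryonic lung mesenchyme and of adult lung fibroblasts, had 7, 2 and 9 counts, or a mean of 0.338 ± 0.214 CPM. Wnt3 had 0, 15 and 7 counts, and Wnt8b had 3, 5 and 13. The remaining 8, Wnt1, Wnt3a, Wnt6, Wnt7a, Wnt7b, Wnt8a, Wnt9b and Wnt10a, had at most 7 counts in any library. Wnt7b, a ligand of lung epithelium, had 1, 2 and 0 counts, and Wnt7a had 0, 6 and 0.

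Levels of different genes were compared per kilobase of exon, since a longer transcript yields more reads. On this scale Wnt5a had 1.99 ± 1.14 CPM per kilobase (SD, n = 3), followed by Wnt5b at 0.944 ± 0.447, Wnt11 at 0.600 ± 0.342, Wnt9a at 0.598 ± 0.0637, Wnt2b at 0.539 ± 0.0704 and Wnt4 at 0.452 ± 0.0894. The ranges of mean ± SD of neighbours in this order overlapped. Wnt5a made up 20.4%, 40.7% and 28.0% of the summed ligand level in libraries 1, 2 and 3, and Wnt5b 26.2%, 12.6% and 7.95%. The leading ligand per kilobase was therefore Wnt5b in library 1 and Wnt5a in libraries 2 and 3. Without length correction Wnt5a was above Wnt5b in every library, at 8.26 against 3.60 CPM in library 1. The log2 ratio of Wnt5a to Wnt5b (pseudocount of 0.1 CPM per kilobase, here and in all ratios below) was -0.33 in library 1 and had the opposite sign in libraries 2 and 3, where Wnt5a was the higher, with a mean of 0.96 ± 1.12 (SD, n = 3).

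Frizzled receptors, the seven-pass membrane proteins that bind Wnt ligands, were led by Fzd4 and Fzd5. Fzd4 (ENSMUSG00000049791, chromosome 7, 89404355 to 89413134), which is also the receptor of norrin in blood vessels, had 31.4, 17.1 and 16.7 CPM, with library 1 above the other libraries. Fzd5 (ENSMUSG00000045005, chromosome 1, 64730558 to 64737751) had the opposite order, 13.1, 20.3 and 26.2 CPM. Fzd1 had 7.78, 11.4 and 9.95 CPM, and Fzd7, a close relative of Fzd1 and Fzd2, had 7.67, 9.48 and 6.64 CPM. Fzd6, a receptor of planar cell polarity, had 5.40, 2.67 and 3.08 CPM, again highest in library 1. Fzd2 was steady at 2.43, 2.02 and 2.37 CPM. Of the other receptors, Fzd3 had 4, 26 and 12 counts, Fzd8 10, 22 and 15, Fzd9 0, 8 and 4, and Fzd10 20, 2 and 5.

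Per kilobase of exon, Fzd4 had 3.23 ± 1.24, Fzd5 2.87 ± 0.946, Fzd1 2.31 ± 0.433 and Fzd7 1.75 ± 0.317 CPM (SD, n = 3). The ranges of mean ± SD of neighbours among these overlapped, although inside each library Fzd1 was above Fzd7. Fzd6 and Fzd2 followed at 0.771 ± 0.305 and 0.621 ± 0.0615. The lowest library of Fzd7, at 1.46, lay above the highest library of Fzd6, at 1.12. Fzd4 took 37.9% of the Frizzled total in library 1 and 21.4% and 21.1% in libraries 2 and 3, whereas Fzd5 took 15.4%, 24.6% and 32.1%. Although single receptors shifted, the Frizzled total, scaled by library totals, moved little, with 12.3, 11.9 and 11.8 CPM per kilobase. TMM scaling, with factors of 0.951, 0.983 and 1.07 on the library totals, would widen this range, and its variation was not tested.

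**Figure D2:**
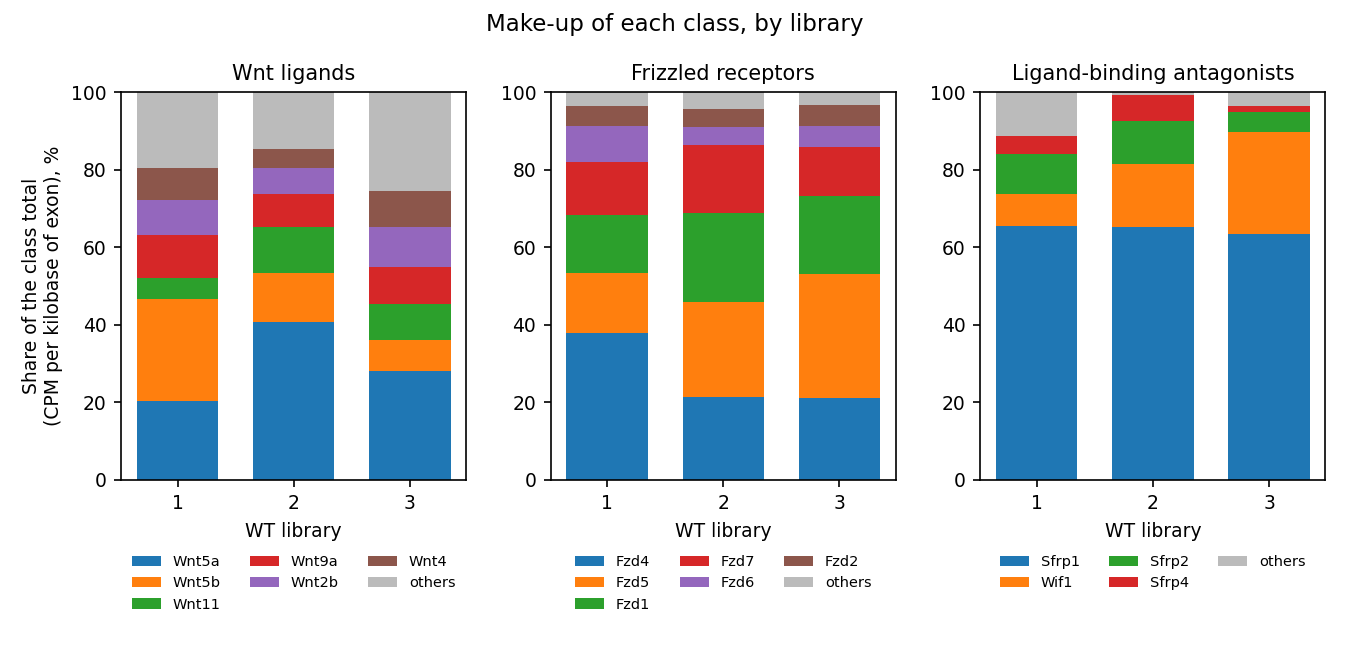
Share of the summed level per kilobase of exon (percent) that each gene took within the Wnt ligands, the Frizzled receptors and the ligand-binding antagonists, with 1 stacked bar per WT library and rarer genes pooled as others. Wnt5a and Wnt5b, and Fzd4 and Fzd5, changed places between libraries, while Sfrp1 kept 63.3% to 65.5% of its class.

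The window around the transcription start is shown for 5 members, from 250 bases before to 50 bases after a start in RefSeq (GRCm38.p6, 5′ to 3′ on the strand of the gene). Of the 47 members, 31 had such a window. Fzd4 and Fzd5 are shown because their levels differed between libraries in opposite orders, Wnt11 and Fzd7 because, of the members above 1 CPM, theirs are the windows with a TCF/LEF match, and Axin2 because it is a standard target of beta-catenin. Capitals mark matches on either strand, which may overlap, of the TCF/LEF core, searched as CTTTGAT and with its last letters replaced to give CTTTGTT or else changed into CTTTGAA or finally into CTTTGTA, and of the GC box, searched as GGGCGG. The RefSeq start lay 277 bases from the gene start of the count table for Fzd7 and at most 11 bases from it for the other 4.
Wnt11, chr7:98834862-98835161, + strand: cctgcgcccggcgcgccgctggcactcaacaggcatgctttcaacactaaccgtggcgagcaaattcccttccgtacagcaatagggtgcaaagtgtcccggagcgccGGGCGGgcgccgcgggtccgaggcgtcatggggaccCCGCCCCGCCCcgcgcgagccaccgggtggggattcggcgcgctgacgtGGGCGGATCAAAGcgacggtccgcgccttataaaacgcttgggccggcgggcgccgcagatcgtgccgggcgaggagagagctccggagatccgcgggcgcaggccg
Fzd4, chr7:89404116-89404415, + strand: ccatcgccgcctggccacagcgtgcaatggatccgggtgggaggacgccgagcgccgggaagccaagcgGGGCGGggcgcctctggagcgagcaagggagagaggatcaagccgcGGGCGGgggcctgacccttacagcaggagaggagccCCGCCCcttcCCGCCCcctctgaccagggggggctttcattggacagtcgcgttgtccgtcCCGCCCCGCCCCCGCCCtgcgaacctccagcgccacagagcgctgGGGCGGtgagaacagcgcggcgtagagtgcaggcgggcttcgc
Fzd5, chr1:64737701-64738000, - strand: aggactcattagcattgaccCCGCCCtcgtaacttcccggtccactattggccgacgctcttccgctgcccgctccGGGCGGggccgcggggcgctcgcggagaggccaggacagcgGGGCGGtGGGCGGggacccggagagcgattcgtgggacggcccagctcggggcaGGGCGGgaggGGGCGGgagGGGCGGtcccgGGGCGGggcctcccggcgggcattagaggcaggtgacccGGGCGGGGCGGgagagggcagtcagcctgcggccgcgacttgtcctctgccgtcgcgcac
Fzd7, chr1:59481897-59482196, + strand: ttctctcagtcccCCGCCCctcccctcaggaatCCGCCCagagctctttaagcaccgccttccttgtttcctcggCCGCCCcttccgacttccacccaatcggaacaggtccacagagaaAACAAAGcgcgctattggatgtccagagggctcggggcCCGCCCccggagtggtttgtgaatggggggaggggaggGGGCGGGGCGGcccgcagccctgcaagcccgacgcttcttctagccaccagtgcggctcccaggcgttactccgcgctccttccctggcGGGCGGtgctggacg
Axin2, chr11:108920099-108920398, + strand: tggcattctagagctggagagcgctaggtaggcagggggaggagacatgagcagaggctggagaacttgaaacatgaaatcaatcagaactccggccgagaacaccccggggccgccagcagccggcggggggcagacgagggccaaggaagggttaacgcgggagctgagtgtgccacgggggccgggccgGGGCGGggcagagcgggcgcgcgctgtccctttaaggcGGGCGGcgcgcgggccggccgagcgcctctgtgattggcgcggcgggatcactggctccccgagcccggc
The Wnt11 and Fzd7 windows each held 1 TCF/LEF match, and those of Fzd4, Fzd5 and Axin2 held none. GC boxes numbered 4 in the Wnt11 window, 8 in Fzd4, 10 in Fzd5, 7 in Fzd7 and 2 in Axin2.

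Over the 31 windows, 4 (12.9%) held a TCF/LEF match, against 14.6% of 16084 windows of nuclear protein-coding genes, and 24 (77.4%) held a GC box, against 48.4%. The other TCF/LEF matches were in the windows of Wnt3 and Dkk1. The sequence CArG, bound by the smooth muscle regulator SRF, was found in none of the 31 windows and in 1.45% of all windows. The members' windows were rich in CpG, with a median of 29 CpG dinucleotides, against 14 in all windows. The median was 38 in the 13 members with a mean of at least 1 CPM and 26.5 in the 18 below it, and over all genes 20 and 4 in the same classes. These are matches of letters in a short window and do not show binding.

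The coreceptors Lrp5 and Lrp6 are single-pass receptors that form the signalling complex with Frizzled. Lrp6 (ENSMUSG00000030201, chromosome 6, 134446476 to 134566965) had 1949, 1960 and 1975 counts, or 103, 107 and 117 CPM, a highest-to-lowest ratio of 1.01 with TMM scaling. Scaled by library totals it did pass the test of variation between libraries described below (adjusted p = 0.000527, chi-square test of homogeneity), against an adjusted p of 0.973 with TMM scaling in the same test. Lrp5 had 34.5, 21.7 and 23.6 CPM, with library 1 the highest. Per kilobase of exon Lrp6 had 7.97 ± 0.526 CPM and Lrp5 2.73 ± 0.711 CPM (SD, n = 3). The log2 ratio of Lrp6 to Lrp5 was 1.07, 1.77 and 1.78, with a mean of 1.54 ± 0.41, or 2.90-fold.

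Secreted antagonists act outside the cell. The Sfrp proteins, Frzb and Wif1 bind Wnt ligands, and Dkk1, Dkk2 and Dkk4 bind the coreceptors, whereas Dkk3 is a divergent family member not known to act through Lrp5 or Lrp6. Dkk3 (ENSMUSG00000030772, chromosome 7, 112116017 to 112159057) was the highest of the 10 antagonists, at 18.5, 37.6 and 24.0 CPM, with library 2 above the others. Dkk1 was not counted at all, Dkk2 had 12, 0 and 13 counts, and Dkk4 had 17, 3 and 5. Per kilobase of exon, Dkk3 was at least 84.3-fold higher than Dkk1 in library 1, 166-fold in library 2 and 97.5-fold in library 3, with Dkk1 set at the limit of 3 counts per library.

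Sfrp1 (ENSMUSG00000031548, chromosome 8, 23411502 to 23449632), known as a product of lung fibroblasts, led the ligand-binding antagonists at 5.40, 12.2 and 9.18 CPM. Library 1 was the lowest, as it was for Wif1, which had 0.370, 1.69 and 2.13 CPM. Sfrp2 had 8, 19 and 6 counts and Sfrp4 had 7, 22 and 4, both highest in library 2. Frzb was highest in library 1 instead, with 13, 0 and 3 counts, and Sfrp5 had 0, 1 and 2. The log2 ratio of Sfrp1 to Sfrp2 was 2.17, 2.32 and 3.05, with a mean of 2.51 ± 0.47, and that of Sfrp1 to Frzb had a mean of 3.59 ± 1.40.

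R-spondins, secreted amplifiers that bind Lgr4, Lgr5 and Lgr6 and so keep Frizzled receptors at the surface, were all rare. Rspo1 was the highest at 0.423, 1.14 and 1.24 CPM. Rspo3, a known product of endothelium and mesenchyme, had 2, 11 and 16 counts, Rspo4 had 0, 9 and 13, and Rspo2 had 1, 0 and 2. Library 1 was the lowest for Rspo1, Rspo3 and Rspo4. Of their receptors, Lgr6 had 13.1, 20.6 and 11.4 CPM, Lgr5 5.77, 4.52 and 5.21 CPM and Lgr4 2.06, 4.52 and 2.01 CPM. Per kilobase of exon, Lgr6 had 2.20 ± 0.716 CPM, above Rspo1 at 0.484 ± 0.231 beyond the spread, whereas Lgr5 at 0.504 ± 0.0609 and Lgr4 at 0.487 ± 0.244 did not differ from Rspo1 beyond it (SD, n = 3).

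The intracellular members were abundant, Ctnnb1 being the highest of all members per kilobase and Axin2 following Lrp6 and Dkk3. Ctnnb1 (ENSMUSG00000006932, chromosome 9, 120929216 to 120960507) encodes beta-catenin, which also links cadherins to actin at cell junctions, and had 111, 138 and 157 CPM. Axin2 (ENSMUSG00000000142, chromosome 11, 108920349 to 108950783), a scaffold that degrades beta-catenin and is itself a beta-catenin target, had 36.6, 44.8 and 38.2 CPM, a 1.28-fold range with TMM scaling. Per kilobase of exon Ctnnb1 had 26.1 ± 4.50 CPM and Axin2 7.24 ± 0.788 CPM (SD, n = 3). Those levels placed Ctnnb1 at percentile 95.9 of nuclear protein-coding genes, Lrp6 at 83.5, Dkk3 at 83.4, Axin2 at 81.9, Fzd4 at 68.4 and Wnt5a at 60.6.

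Within each library, summed Frizzled levels exceeded summed ligand levels. The log2 ratio was 1.24, 0.57 and 0.99, with a mean of 0.93 ± 0.34 (SD, n = 3), or 1.91-fold. The 10 antagonists together exceeded the ligands by 0.66, 0.95 and 0.87, with a mean of 0.83 ± 0.15. That direction rested on Dkk3, and without it the mean was -0.79 ± 0.14, so that the other 9 antagonists together lay below the ligands. R-spondins lay below the ligands at -3.86, -2.89 and -2.10, with a mean of -2.95 ± 0.88. These ratios carry no test, because 3 libraries allow no p smaller than 0.25 (exact permutation of the signs, two-sided).

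Of 16 pairs of related members, 12 had ratios of 1 sign in the 3 libraries, as the plot of ratios shows. Fzd1 exceeded Fzd2 by 1.73 ± 0.38 and Fzd7 by 0.38 ± 0.27, and Fzd5 exceeded Fzd8 by 3.57 ± 0.35. Wnt2 lay below Wnt2b at -1.43 ± 0.60, Rspo3 below Rspo1 at -1.12 ± 0.21, Wnt8a below Wnt8b at -0.41 ± 0.15 and Dkk2 below Dkk3 at -5.25 ± 1.36. Wnt9a was at least 16.3-fold, 18.6-fold and 14.0-fold higher than Wnt9b, which had no count, per kilobase in libraries 1, 2 and 3. The pairs without a common sign were Wnt5a with Wnt5b, Wnt3 with Wnt3a, Wnt7a with Wnt7b and Fzd9 with Fzd10. In the last of these, library 1 had 0 counts of Fzd9 and 20 of Fzd10, and library 2 had 8 and 2. Ratios of genes with few counts depend on the pseudocount, and with a pseudocount of 1 those of Fzd1 to Fzd2, Fzd5 to Fzd8, Sfrp1 to Sfrp2 and Sfrp1 to Frzb shrank to 1.02, 1.73, 1.22 and 1.45. Those of Wnt2 to Wnt2b, Wnt8a to Wnt8b, Wnt10a to Wnt10b, Rspo3 to Rspo1 and Dkk2 to Dkk3 shrank to -0.42, -0.06, -0.19, -0.33 and -2.94, and that of Wnt9a to Wnt9b to 0.68.

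**Figure D3:**
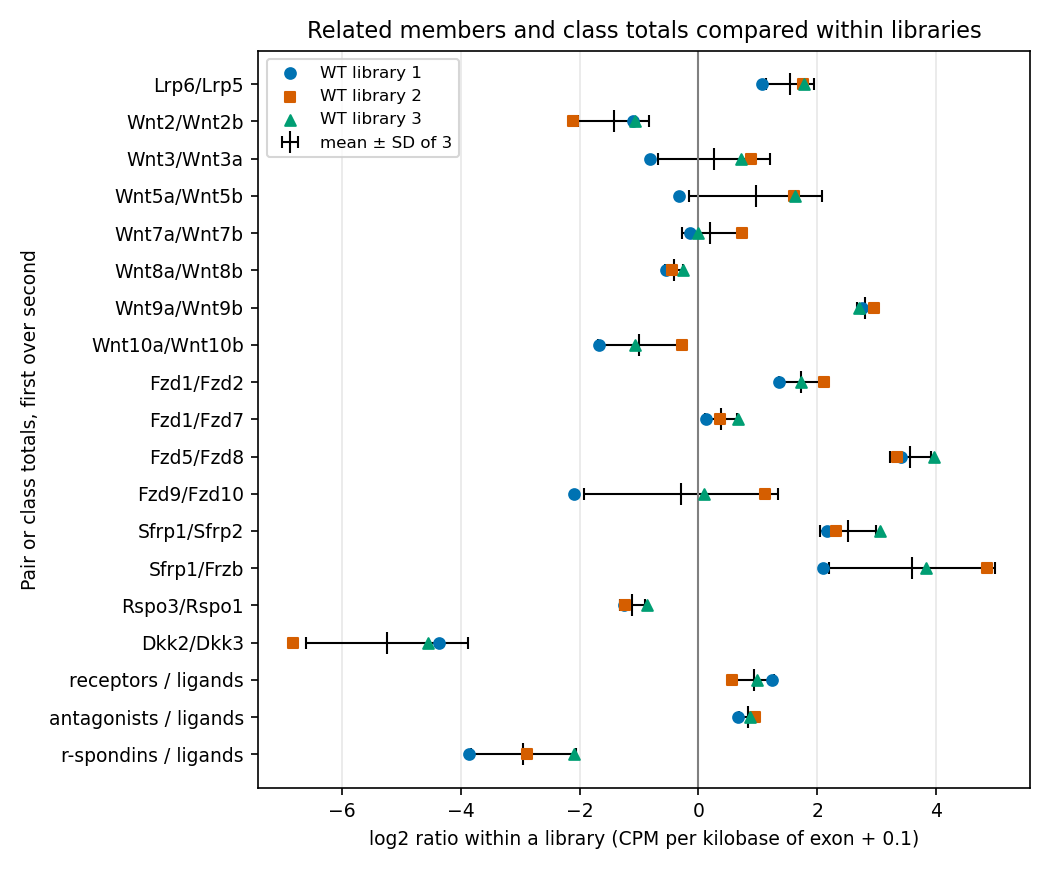
Log2 ratios within a library of related members (first over second) and of class totals, in CPM per kilobase of exon with a pseudocount of 0.1, with 1 symbol per WT library and bars for the mean and SD of 3. Lrp6 lies above Lrp5 in every library, and Wnt5a lies below Wnt5b in library 1 only.

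Which members differed between the 3 libraries by more than counting error was assessed by a chi-square homogeneity test on TMM library sizes, with Benjamini-Hochberg adjustment over 23317 genes with at least 10 counts. Of the 37 members tested, 27 varied (73.0%), against 70.0% of all genes tested and 73.1% of nuclear protein-coding genes, so the share was that of the background. A range of at least 2-fold on top of this was seen in 20 members (54.1%), against 33.7% of all genes and 26.8% of nuclear protein-coding genes. Of these 20, 12 had a mean below 1 CPM, out of 17 such members tested (70.6%), against 64.3% of nuclear protein-coding genes below 1 CPM. Among the 18 members with a mean of 1 to 100 CPM, 14 varied and 8 did so by at least 2-fold (44.4%), against 73.2% and 21.4% of nuclear protein-coding genes in that range. Levels were not matched further inside this range. A mean of at least 10 CPM was reached by 17.0% of members, against 35.8% of nuclear protein-coding genes.

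The libraries differed from member to member in which was highest. Of the 37 members tested, 8 (21.6%) varied at least 2-fold and were highest in library 2, namely Wnt5a, Wnt11, Wnt3, Fzd3, Fzd9, Sfrp1, Sfrp2 and Sfrp4, against 7.38% of nuclear protein-coding genes tested. Library 1 was highest for 7 (18.9%), Wnt5b, Wnt16, Fzd4, Fzd6, Fzd10, Frzb and Dkk4 (background 12.0%), and library 3 for 5 (13.5%), Wnt8b, Wif1, Dkk2, Rspo3 and Rspo4 (background 7.39%). These backgrounds cover genes of all levels and were not matched for level. Of the 37 members tested, 17 had a mean below 1 CPM. At that level 64.3% of nuclear protein-coding genes varied at least 2-fold, against 26.8% at all levels. Adjusted p in this test was 3.1e-41 for Wnt5a, 1.24e-06 for Wnt11, 6.06e-10 for Sfrp1, 6.72e-32 for Fzd4 and 0.000168 for Wif1. Dkk3, with a 1.96-fold range, had an adjusted p of 3.27e-29, Lrp5 2.46e-19 and Fzd5 2e-11. A total of 10 tested members did not pass, namely Lrp6, Fzd2, Fzd8, Wnt2, Wnt2b, Wnt3a, Wnt4, Wnt9a, Wnt10b and Rspo1. Rspo1 missed the threshold at an adjusted p of 0.0504, and passed it when scaled by library totals, at 0.0278.

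The count of varied members was lower without any 1 of the libraries, as was the share of all genes. Without library 1, 12 of 33 members tested varied (36.4%), against 38.2% of all genes. Without library 2, 16 of 34 varied (47.1%, background 53.4%), and without library 3, 22 of 32 (68.8%, background 56.8%). Only Wnt5a, Fzd5 and Sfrp1 passed the test in all 3 of these pairs of libraries. Fzd4, Fzd6 and Lrp5 did not vary beyond the threshold between libraries 2 and 3, with adjusted p of 0.299, 0.849 and 0.998, and Dkk3 not between libraries 1 and 3, at 0.072 in the same chi-square test.

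Markers of several cell types moved between the same libraries; their sums are given in CPM, and the counts of genes by highest library are after TMM scaling. Endothelial markers, at 836, 482 and 643 CPM in sum, were highest in library 1 for 9 of 10 genes, beside Fzd4, Fzd6 and Lrp5. Alveolar type 2 markers (2222, 487 and 569 CPM), airway markers (13769, 2801 and 7912 CPM) and myeloid markers (856, 240 and 316 CPM) were also highest in library 1, for 6 of 7, 6 of 7 and 7 of 8 genes. Smooth muscle markers (65.7, 103 and 74.1 CPM) were highest in library 2 for 7 of 8 genes and pericyte markers (64.7, 122 and 91.7 CPM) for 5 of 7, beside Wnt5a, Wnt11, Sfrp1 and Dkk3. Fibroblast markers were low in library 1 and higher in libraries 2 and 3, at 900.1, 1880.0 and 1922.8 CPM. Of these 10 genes, 4 were highest in library 3. After TMM scaling the fibroblast sum was highest in library 2, with a log2 over the mean of 0.30, against 0.21 in library 3. It was lowest in library 1, as were Wnt5a, Wnt11, Sfrp1, Dkk3, Wif1 and Rspo3. B cell markers (496, 744 and 987 CPM, 5 of 5 genes) and natural killer markers (244, 361 and 566 CPM, 4 of 4 genes) were highest in library 3, beside Fzd5, Ctnnb1, Wif1 and Rspo3. T cell markers (1146, 1114 and 851 CPM) were highest in library 1 for 5 of 8 genes. Of the markers of all lists, Krt5 (airway), Itgam (myeloid), Cnn1 (smooth muscle) and Upk3b (mesothelium) were at 0 in library 1, and no marker was at 0 in every library. The members named beside the markers are not all that were highest or lowest in that library. Those with a 2-fold range are listed above by highest library. The part of these cell types in the members' variation was not tested.

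**Figure D4:**
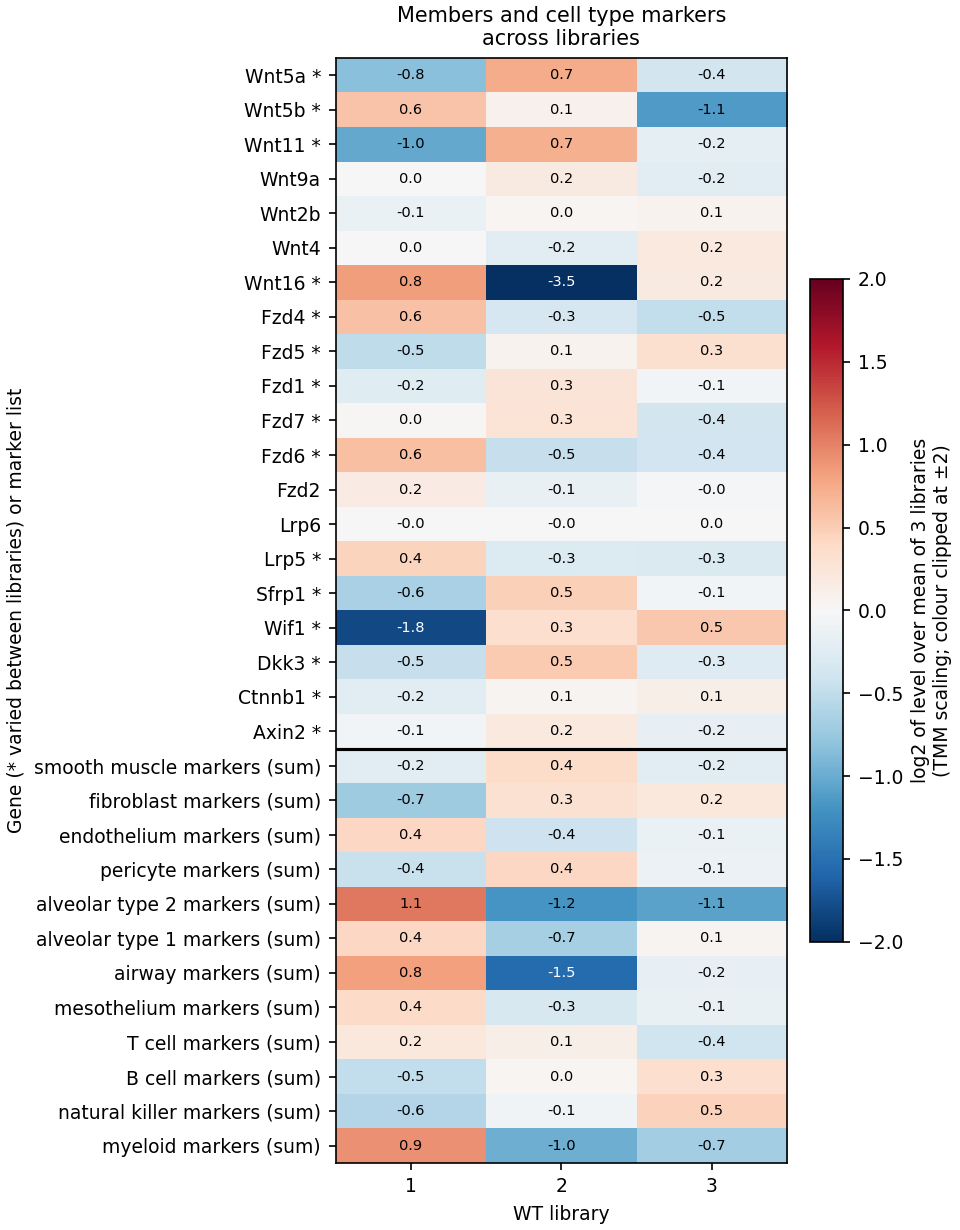
Log2 of the TMM-scaled level over the mean of the 3 WT libraries, for the 20 members with a mean of at least 1 CPM (asterisks mark those that varied between libraries) and, below the line, the summed markers of 12 cell types; red is above and blue below the mean, and colour is clipped at 2. Wnt16 in library 2 is the darkest blue cell at -3.5, Lrp6 stays at 0.0, and alveolar type 2, airway and myeloid markers are red in library 1.

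The dispersion of the members between libraries was also summarised by the biological coefficient of variation of edgeR, an estimate of the relative spread left after counting error. Each value is drawn towards the trend for genes of the same abundance. Wnt10b, steady at 14, 13 and 12 counts, thus still had 0.316. The coefficient was fitted only for genes above a count cutoff in every library, which 19 members were. Wnt16 and Wif1, with ranges of 19.6-fold and 5.11-fold, were left out because they were low in 1 library. Over the 19 members the coefficient ran from 0.136 for Lrp6 to 0.443 for Wnt11, beside 0.266 for all genes in common. In 9 of the 19 it was above the trend for genes of the same abundance, and Wnt5a, at 0.358 against a trend of 0.246, was among them.

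Exons of 9 members overlapped exons of a gene on the other strand, and no source used here states the strand setting of the counting. The overlapping gene had at most 11 counts in any library beside Wnt5a, at most 9 beside Fzd5 and at most 3 beside Axin2. For Sfrp2, with 8, 19 and 6 counts, the gene on the other strand had 8, 0 and 5, and the level of Sfrp2 is uncertain. Ctnnb1 shares 759 exon bases with Ulk4 on the other strand, which had 53 to 68 counts. Fzd5 shared the most 50-base words with other genes, 16.4%, followed by Ctnnb1 at 12.3% and Sfrp2 at 12.0%. Without the 9 overlapping members, 19 of the 29 others tested varied between libraries (65.5%), against 70.0% of all genes.

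Other genes of the pathway, 62 in a list set by function, were more abundant than the members. A mean of at least 1 CPM was reached by 56 of them and of at least 10 CPM by 34, with a median of 13.6 CPM. Of 58 tested, 44 varied between libraries (75.9%) and 12 did so by at least 2-fold (20.7%), against 73.1% and 26.8% of nuclear protein-coding genes. Wls, which carries Wnt proteins to the cell surface, had 51.1, 17.1 and 26.1 CPM, highest in library 1, with a 3.10-fold range after TMM scaling (adjusted p = 3.12e-90, chi-square test of homogeneity). Porcn, the enzyme that attaches their lipid, had 26, 13 and 10 counts. Wls was thus highest in library 1, where Wnt5a was lowest but Wnt5b and Wnt16 were highest. Summed endothelial, alveolar, airway, myeloid, mesothelium and T cell markers were also highest there. The part of these cell types in the level of Wls was not tested.

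Genes of the beta-catenin destruction complex were among the highest of that list. Axin1, the constitutive relative of Axin2, had 76.1, 80.2 and 85.9 CPM, and per kilobase 21.1 ± 1.29 CPM against 7.24 ± 0.788 for Axin2 (SD, n = 3). Apc had 157 ± 32.8 CPM, the kinase genes Csnk1a1 182 ± 10.2 CPM and Gsk3b 115 ± 1.52 CPM. Of the nuclear partners of beta-catenin, Tcf7 had 179 ± 35.4 and Lef1 28.7 ± 7.68 CPM per kilobase, against 26.1 ± 4.50 for Ctnnb1. Tcf7 lay above Ctnnb1 beyond the spread and Lef1 did not. Both are also T cell factors, and the T cell markers were at 851 to 1146 CPM in sum; their part in these levels was not tested. The corepressors Tle3 and Tle4 had 159 ± 3.58 and 87.0 ± 3.33 CPM and the coactivator Bcl9l 111 ± 9.93 CPM. Cd44, a hyaluronan receptor listed as a Wnt target, had 171 ± 37.0 CPM.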

How the data were processed

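The authors' deposited table gives raw read counts per gene for 3 WT libraries, whose columns carry control numbers that match the WT numbers of the titles. The submitters' processing notes name STAR 2.6.1d, Trimmomatic 0.38, FastQC, DESeq2 1.18.1 and featureCounts 1.6.3 without settings, and no source used here states the sorting gate. The notes name a human build, whereas gene IDs are mouse; all 47 members are in GENCODE M21 (GRCm38), 38 with identical coordinates. Per the labels, libraries were total RNA (SMARTer stranded kit), which also hold unspliced transcripts.

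CPM used library totals; exon lengths were unions of GENCODE exons. TMM factors and dispersion came from edgeR 4.0.16 (R 4.3.3), and size factors of DESeq2 1.42.0 were an alternative. The chi-square test was checked on simulated data. Without molecular identifiers, its p-values and all intervals cover counting error only. Members at or above 1 CPM were named with values per library, those below by counts; pathway genes were named at 50 CPM or more, with Tcf7, Lef1, Lgr4, Lgr5, Lgr6, Wls and Porcn. Promoter motifs and windows were chosen after values were seen. The members, lists and pairs were chosen with earlier results of these data known. Alternatives were other scalings, filters, pseudocounts and lengths, and each library left out.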

Additional observations from a re-analysis of the deposited data

How the results depend on the processing

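The number of members at a mean of 1 CPM stayed within 1.5 times of 20 under every alternative run, from 18 with 1 CPM asked for in every library to 26 with counts at nuclear protein-coding genes as the denominator. With at least 100 counts asked for, 13 members varied and 6 did so by at least 2-fold, since fewer genes are tested. Leaving out 1 library gave 12 to 22 varied members and 6 to 15 with a 2-fold range. All 27 calls were kept with library totals and with DESeq2 size factors. The log2 ratio of receptors to ligands was 1.44 without Wnt5a among the ligands, an alternative chosen after seeing the data. That of antagonists to ligands was 1.34 without Wnt5a, 0.68 per kilobase of the longest transcript, 0.36 without length correction and -0.79 without Dkk3, the one reversal, also chosen after seeing the data. That of R-spondins to ligands was -4.11 without length correction and -2.02 with a pseudocount of 1. Without length correction that of Wnt5a to Wnt5b was 2.55 and that of Lrp6 to Lrp5 2.06. The pairs with 1 sign numbered 12 or 13 under the alternatives with all 3 libraries. With 1 library left out, where fewer ratios have to agree, they numbered 12 to 15. Depth limits the 27 members below 1 CPM, of which 10 had too few counts to test. No paired analysis was possible because the series has 1 group.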
